A study of Mus musculus with 56 samples.

Results

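Lactobacillus was taken as every amplicon sequence variant (ASV, a distinct 16S rRNA gene sequence) to which the authors' Greengenes taxonomy gave that genus. It held 33 of the 938 ASVs in the table, of which 23 had at least 1 count and 10 had none in these libraries. The 23 ASVs held 289887 counts, 17.7% of all counts, and each of the 56 libraries had some. Contents of the small intestine (SI) and the large intestine (LI) of 28 male mice were sequenced, with 1 library per mouse and site. Wild-type (WT) C57BL/6J mice and mice without the melanocortin 4 receptor (MC4R KO) were given a normal diet (ND) or a Western diet (WD) for 12 weeks from about 10 weeks of age. There were 6 WT mice on each diet (WT-ND and WT-WD) and 8 KO mice on each diet (KO-ND and KO-WD), and all were housed singly and had received the same chow and then the same ND beforehand. WT mice were purchased from a breeder and the KO mice came from a line described in earlier work, and although all were kept in 1 room, genotype and origin of the mice cannot be told apart. At each site the contents of a 4 cm stretch were collected, starting at the midpoint of the SI or of the gut below the cecum.

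Lactobacilli are Gram-positive bacteria that ferment sugars to lactic acid, and in mice they colonise the forestomach and the small intestine. Many strains carry bile salt hydrolase, an enzyme that splits the amino acid from conjugated bile acids. Strains of 1 species can differ in such genes, and an ASV of a short 16S region separates neither all strains nor all species. MC4R, a brain receptor, curbs appetite, and mice lacking it are obese. The Greengenes release used here predates the division of Lactobacillus into several genera, so the name covers the older, broad genus.

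Values are shares of the library total, which was 22550 to 35236 counts (median 29721). A share is relative, so a higher share of Lactobacillus and a smaller amount of other bacteria cannot be told apart. Counts came from PCR products without molecular identifiers, and limits for ASVs without counts therefore cover counting error only. They do not cover low counts of a variant that the removal of noise from the reads may have dropped. As a check of the site labels, the 28 LI libraries held 75 to 178 ASVs (median 137.5) and the 28 SI libraries held 15 to 104 (median 35.5). Allobaculum, the largest other component, took 47.3% ± 7.25 (SD) of WT-ND and 27.3% ± 12.3 of KO-ND libraries in the SI, and its part in the Lactobacillus shares was weighed only by leaving it out of the total. Lactococcus took 19.9% ± 7.00 of WT-WD and 1.56% ± 1.98 of KO-WD libraries in the SI. It was not left out of the total in any fit, so its part in the shares was not tested. All tests across taxa used edgeR's quasi-likelihood test with Benjamini-Hochberg adjustment over all taxa tested at that rank, and a taxon was called at an adjusted p under 0.05. A taxon was tested where its mean share was at least 0.01% and it had counts in at least 4 libraries of that comparison.

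In the SI, Lactobacillus was higher in KO-WD than in WT-WD mice. Its share was 5.45% to 60.4% in the 8 KO-WD libraries (median 36.2%, mean 39% ± 18.4 SD) and 5.43% to 14.7% in the 6 WT-WD libraries (median 10.0%, mean 10.0% ± 3.88). 7 of the 8 KO-WD libraries exceeded every WT-WD library, and the exception was KO-WD replicate 5 at 5.45%. The log2 fold change was 1.96 (SE 0.46), a 3.90-fold difference, and it passed the test (edgeR, adjusted p = 0.00145). In that comparison 58.6% of the 29 genera tested were called. With each library left out in turn the log2 fold change was 1.84 to 2.13 and it was called in 14 of 14 fits.

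On the normal diet the difference in the SI was in the same direction and did not pass. The share was 7.65% to 49.3% in KO-ND libraries (median 33.6%, mean 32.2% ± 13.3, n = 8) and 1.82% to 34.7% in WT-ND libraries (median 12.1%, mean 15.7% ± 14.3, n = 6). The WT-ND group itself was widely spread, with 31.0% in replicate 1 and 34.7% in replicate 6 against 2.17% in replicate 3 and 1.82% in replicate 5. The groups overlapped, with 4 of 8 KO-ND libraries above every WT-ND library. The log2 fold change was 1.04 (SE 0.62, edgeR adjusted p = 0.282), and 13.0% of the 23 genera tested were called. KO-WD against WT-ND, the comparison that changes genotype and diet together, gave 1.32 (SE 0.62, unadjusted p = 0.0440, edgeR adjusted p = 0.0880), with 36.4% of 22 genera called. Without WT-ND replicate 6 this value was 1.72 (edgeR adjusted p = 0.0442), and without KO-WD replicate 5 it was 1.48 (edgeR adjusted p = 0.0362).

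In the LI, Lactobacillus again had a higher share in KO-WD than in WT-WD mice, with less certainty. The share was 0.148% to 34.3% in KO-WD libraries (median 18.4%, mean 17.8% ± 10.7, n = 8) and 0.562% to 8.60% in WT-WD libraries (median 1.71%, mean 3.24% ± 3.43, n = 6). 7 of 8 KO-WD libraries exceeded every WT-WD library, and KO-WD replicate 5 lay below all of them. The log2 fold change was 2.46 (SE 0.89), or 5.51-fold (edgeR adjusted p = 0.0460), where 34.1% of the 41 genera tested were called. The call was lost when any 1 of 10 libraries was left out (WT-WD replicates 1, 2, 3 and 6, and KO-WD replicates 2, 3, 4, 6, 7 and 8), with adjusted p values over all 14 fits from 0.00853 to 0.0883, while the log2 fold change stayed between 2.24 and 3.04. It was also lost with TMM factors (edgeR adjusted p = 0.0719), with all 4 groups in 1 fit (edgeR adjusted p = 0.0506) and with limma on centred log ratios (adjusted p = 0.0834).

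KO-ND libraries of the LI held 0.958% to 31.4% (median 19.9%, mean 18.2% ± 11.4, n = 8), and WT-ND libraries held 0.240% to 12.9% (median 0.635%, mean 3.77% ± 5.36, n = 6). 6 of 8 KO-ND libraries exceeded every WT-ND library. The log2 fold change was 2.27 (SE 1.01, unadjusted p = 0.0397) and did not pass the adjustment (edgeR adjusted p = 0.109), in a comparison where 29.3% of 41 genera were called. Without WT-ND replicate 2, the WT-ND library with the highest share, it was 3.23 (edgeR adjusted p = 0.0306). KO-WD against WT-ND gave 2.25 (SE 1.06, edgeR adjusted p = 0.133), with 25.6% of 39 genera called.

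**Figure D1:**
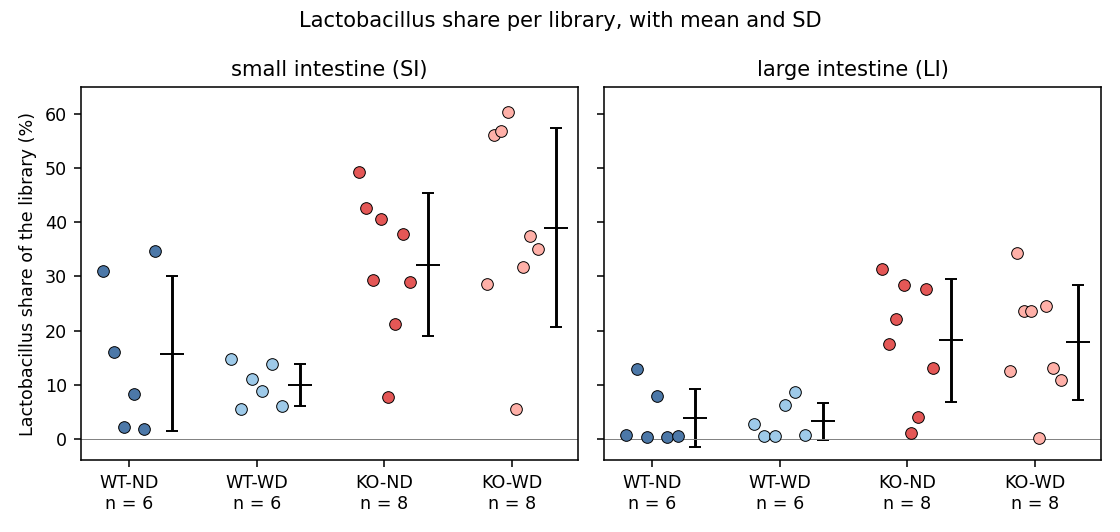
Lactobacillus share of each library in percent, with 1 point per mouse, the mean (dash) and the SD (bar), by group in the SI (left) and the LI (right). 7 of 8 KO-WD points lie above all WT-WD points in both sites, and the lowest KO-WD point is 5.45% in the SI and 0.148% in the LI.

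Diet alone gave no call for the genus. WD against ND in WT mice gave a log2 fold change of -0.65 (SE 0.66, edgeR adjusted p = 0.501) in the SI and -0.22 (SE 1.12, edgeR adjusted p = 0.926) in the LI. In these comparisons 2.70% of the 37 genera tested were called in the LI and 0% of 30 in the SI. In KO mice WD against ND gave 0.28 (SE 0.45, edgeR adjusted p = 0.673) in the SI and -0.03 (SE 0.72, edgeR adjusted p = 0.996) in the LI. Of the genera tested there, 0% of 23 were called in the SI and 0% of 39 in the LI. The genotype by diet interaction, the test of whether the difference between genotypes changed with diet, was 0.92 (SE 0.76, edgeR adjusted p = 0.727) in the SI and 0.19 (SE 1.29, adjusted p = 1) in the LI. The interaction tests called 0% of 32 genera in the SI and 0% of 44 in the LI. The larger and called difference on WD was therefore not shown to differ from that on ND.

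KO replicate 5 of each diet had the lowest Lactobacillus share of its group in both sites, and since replicate numbers do not link mice of different groups these are 2 mice with no link in the labels. Without them the mean was 35.7% ± 9.64 (n = 7) in KO-ND and 43.8% ± 13.5 (n = 7) in KO-WD libraries of the SI, and 20.6% ± 9.77 and 20.4% ± 8.56 in the LI. With Allobaculum left out of the total, Lactobacillus made up 53.0% ± 22.3 of the remaining counts in KO-WD and 17.4% ± 6.90 in WT-WD libraries of the SI, and the log2 fold change was 1.61 (edgeR adjusted p = 0.0161). In the same denominator KO-WD against WT-ND was 0.86 in the SI (edgeR adjusted p = 0.298), KO-ND against WT-ND was 0.66 (edgeR adjusted p = 0.498), and KO-WD against WT-WD in the LI was 2.40 (edgeR adjusted p = 0.0493).

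1 ASV carried most of the genus. ASV_002, which had no species label, held 237723 counts, 82.0% of all Lactobacillus counts, and occurred in 48 of 56 libraries and 26 of 28 mice. The next were ASV_011 (no species label, mean share 1.51% over the 56 libraries), ASV_017 and ASV_023 (both labelled reuteri, 0.621% and 0.507%), ASV_039 and ASV_041 (no species label, 0.239% and 0.204%). L. reuteri is a lactic acid bacterium known as a long-term resident of the rodent forestomach. The other 17 ASVs with counts each had a mean share of at most 0.0760%, and 11 of the 23 were found in 1 library only.

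In the SI, ASV_002 was in all 8 KO-ND libraries at 5.25% to 49.1% (median 25.6%, mean 27.5% ± 14.9) and in 7 of 8 KO-WD libraries at up to 60.1% (median 33.9%, mean 35.0% ± 19.6). It was at 0 in KO-WD replicate 5. In WT-ND libraries it ranged from 0 to 29.7% (median 3.52%, mean 8.50% ± 11.7), and in WT-WD libraries from 0.0503% to 11.5% (median 0.279%, mean 3.36% ± 5.08). Levels in WT mice were split, with 7.98% and 11.5% in WT-WD replicates 4 and 5 and at most 0.425% in the other 4. 7 of 8 KO-WD libraries exceeded every WT-WD library.

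The KO-WD against WT-WD difference of ASV_002 was 3.38 on the log2 scale (SE 1.48, unadjusted p = 0.0346) and just missed the threshold (edgeR adjusted p = 0.0545). It was called in the exact rank-sum test (adjusted p = 0.0385), by DESeq2 (adjusted p = 0.00511), by edgeR with no filter (adjusted p = 0.00759) or in a joint fit of the 4 groups (adjusted p = 0.0158), and by edgeR without KO-WD replicate 5 (3.57, adjusted p = 0.01) or without WT-WD replicate 5 (4.34, adjusted p = 0.0278). ASV_002 was not called there with TMM factors or the 0.1% filter. With 1 library left out it was called in 2 of 14 fits (edgeR adjusted p = 0.01 to 0.106). KO-ND against WT-ND gave 1.69 (SE 1.00, edgeR adjusted p = 0.180), and 2.19 with TMM factors (edgeR adjusted p = 0.0472). That difference was called in 0 of 14 fits with 1 library left out (edgeR adjusted p = 0.0699 to 0.321). In the LI, ASV_002 had means of 16.8% ± 11.2 in KO-ND, 16.3% ± 10.1 in KO-WD, 3.26% ± 4.99 in WT-ND and 2.32% ± 3.57 in WT-WD libraries. The KO-WD against WT-WD value there was 2.81 (SE 1.66, edgeR adjusted p = 0.205), with 7 of 8 KO-WD libraries again above all WT-WD libraries. It was called in the exact rank-sum test (adjusted p = 0.039) and with no filter (edgeR adjusted p = 0.00535). With 1 library left out it was called in 0 of 14 fits (edgeR adjusted p = 0.14 to 0.305).

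**Figure D2:**
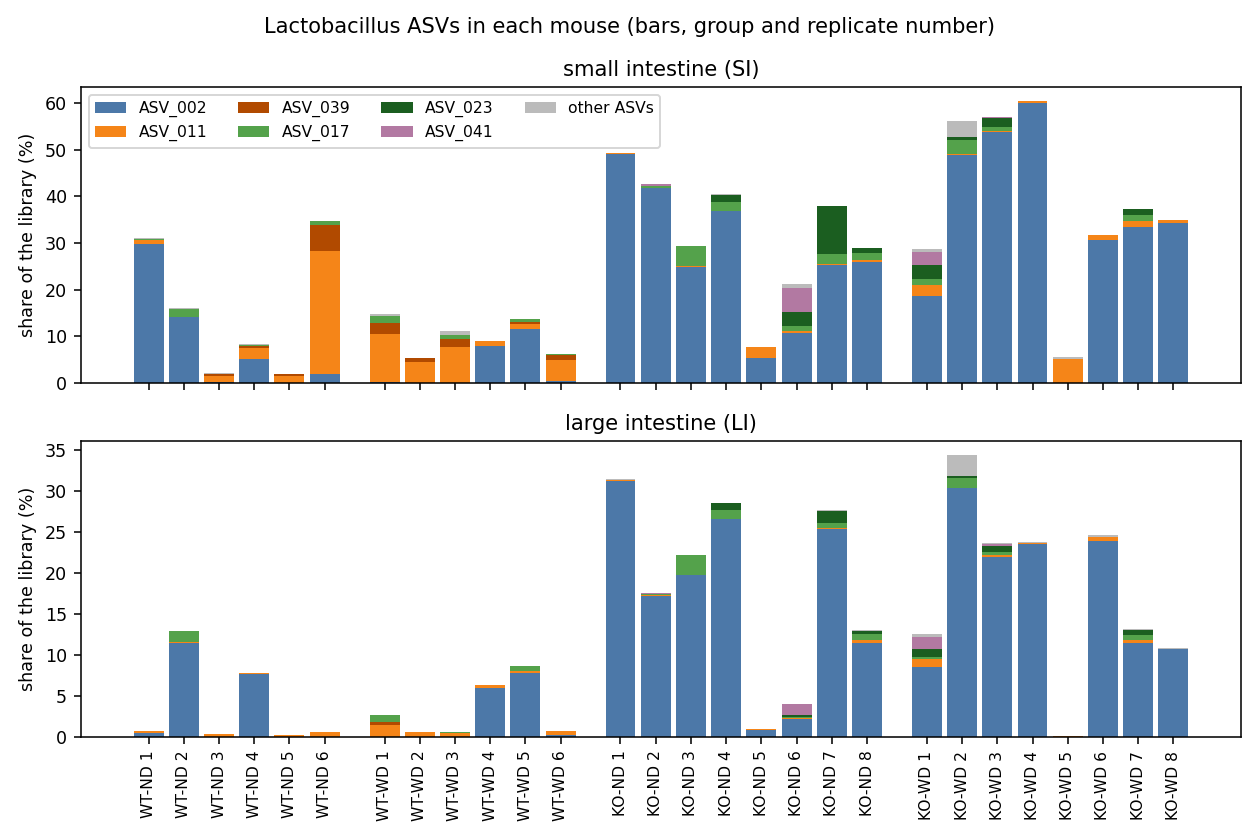
Share of each library (percent) held by the 6 most abundant Lactobacillus ASVs and by the other ASVs together, with 1 bar per mouse labelled by group and replicate number, in the SI (top) and the LI (bottom). ASV_002 fills most of the bar in 15 of 16 KO mice, while ASV_011 leads in 3 of 6 WT-ND and 4 of 6 WT-WD mice in the SI.

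ASV_011 was the second variant of the genus and led in WT mice that had little ASV_002. It was the most abundant Lactobacillus ASV in 3 of 6 WT-ND and 4 of 6 WT-WD libraries of the SI, and in 1 of 16 KO libraries, KO-WD replicate 5. Its share in the SI was 0 to 26.4% in WT-ND (median 1.45%, mean 5.42% ± 10.3), 0.914% to 10.3% in WT-WD (median 4.46%, mean 4.83% ± 3.67), 0 to 2.40% in KO-ND (median 0.197%, mean 0.485% ± 0.793) and 0.113% to 5.03% in KO-WD (median 0.918%, mean 1.39% ± 1.63). The WT-ND mean rested on replicate 6 at 26.4%, since the other 5 libraries held at most 2.25%. No comparison of genotypes was called with the settings used throughout, with -3.48 (SE 1.61, edgeR adjusted p = 0.0834) for KO-ND and -1.80 (SE 0.99, edgeR adjusted p = 0.120) for KO-WD against WT mice on the same diet. The KO-ND value was called with TMM factors (-4.07, edgeR adjusted p = 0.0351), by DESeq2 (-3.26, adjusted p = 0.0291), with no filter (edgeR adjusted p = 0.0474) and in a joint fit of the 4 groups (edgeR adjusted p = 0.0404). It depended on single libraries, with -4.68 (edgeR adjusted p = 0.0182) without KO-ND replicate 5 and -1.34 (edgeR adjusted p = 0.573) without WT-ND replicate 6. The KO-WD value was -2.47 (edgeR adjusted p = 0.0391) without KO-WD replicate 5, and over all 14 fits with 1 library left out it was -2.47 to -1.43. KO-WD against WT-ND gave -1.96 (SE 1.37, edgeR adjusted p = 0.207), and 0.18 without WT-ND replicate 6. In the LI, 7 of 8 KO-ND libraries lay below every WT-ND library (mean 0.0997% against 0.268%). There 5 of 8 KO-WD libraries lay below every WT-WD library (mean 0.276% against 0.603%). The log2 fold changes were -1.42 (SE 0.88, edgeR adjusted p = 0.237) and -1.12 (SE 1.14, edgeR adjusted p = 0.502). KO-WD against WT-ND in the LI gave 0.04 (SE 1.16, edgeR adjusted p = 0.988).

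ASV_039 was found in WT mice and in none of the 32 KO libraries, where counting error alone allows a share of up to 0.000335% over the pooled total. Its lowest count in a library that held it was 97, so lower levels may have gone unseen. In the SI it was at 0, 0, 0.317%, 0.511%, 0.322% and 5.58% in WT-ND replicates 1 to 6, and at 2.41%, 1.00%, 1.71%, 0, 0.318% and 0.895% in WT-WD replicates 1 to 6. It thus occurred in 9 of 12 WT mice, mostly below 2%. The WT mean was 817-fold above 3 counts in the pooled KO total on ND, and 727-fold on WD, as bounds for counting error only. The ND bound rested on WT-ND replicate 6 and was 167-fold without it, and the WD bound was 541-fold or more with any WT-WD library left out. ASV_039 passed the filter only through the WT libraries, so its adjusted p-values (edgeR 0.00277 on ND and 0.00180 on WD, exact rank-sum 0.0468 and 0.00974) are given as a description. Without WT-ND replicate 3, 4, 5 or 6 it no longer passed the filter on ND.

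ASV_039 went with ASV_011. In all 10 libraries that held ASV_039, ASV_011 was present at 3.65 to 5.09 times its count (median 4.50), and no library held ASV_039 without ASV_011. In WT-ND replicate 6 of the SI the counts were 7929 for ASV_011 and 1679 for ASV_039, and in WT-WD replicate 1 they were 3199 and 748. All 10 WT libraries with at least 358 counts of ASV_011 had ASV_039, and the 13 WT libraries with ASV_011 but no ASV_039 had 46 to 296 counts of ASV_011. In KO mice the pair was not seen at any level. 3 KO libraries had 560, 812 and 1446 counts of ASV_011, within the range of the WT libraries that held both, and had no count of ASV_039. These ratios are a description over libraries that share the same 2 sites and 12 mice.

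**Figure D3:**
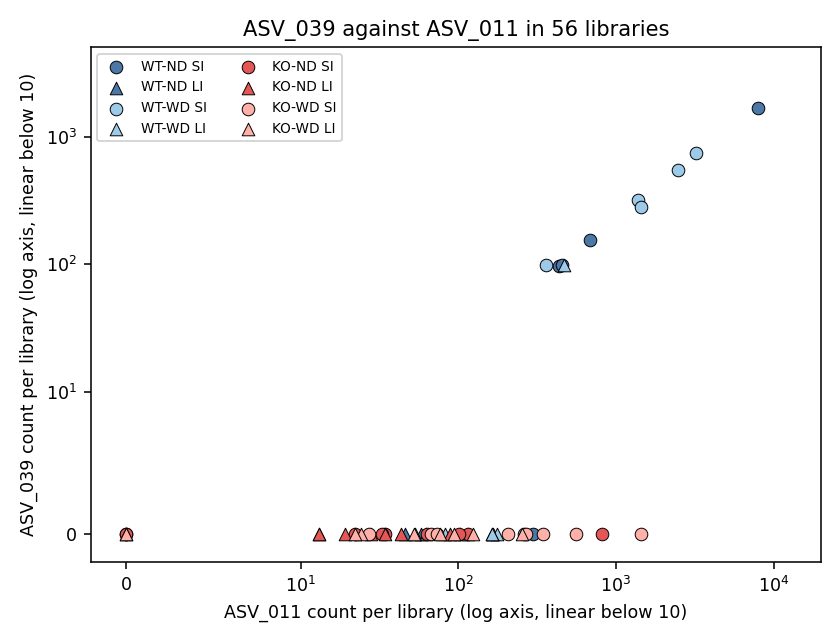
Counts of ASV_039 against counts of ASV_011 in the 56 libraries (log axes, linear below 10), coloured by group, with circles for the SI and triangles for the LI. The 10 libraries with ASV_039 are all from WT mice and lie on a narrow band with 3.65 to 5.09 counts of ASV_011 per count of ASV_039, while KO libraries with up to 1446 counts of ASV_011 lie at 0.

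The 2 abundant ASVs labelled reuteri differed in their distribution. ASV_017 was found in both genotypes. In the SI it occurred in 6 of 6 WT-ND (mean 0.495% ± 0.692), 5 of 6 WT-WD (0.545% ± 0.567), 6 of 8 KO-ND (1.45% ± 1.44) and 4 of 8 KO-WD libraries (0.794% ± 1.05), and it passed the test in none of the 10 group comparisons. ASV_023 had no count in the 24 WT libraries, where counting error alone allows a share of up to 0.000405% over their pooled total.

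ASV_023 was carried by 9 of 16 KO mice. In KO-ND libraries of the SI it was at 0, 0.0458%, 0, 1.57%, 0, 3.08%, 10.2% and 0.946% in replicates 1 to 8, and in KO-WD libraries at 3.14%, 0.657%, 1.90%, 0, 0, 0, 1.26% and 0. KO-ND and KO-WD thus overlapped widely, and carriers and non-carriers were found on both diets. Bounds for counting error only were set against 3 counts in the pooled WT total on the same diet. The KO-ND mean was 1200-fold higher in the SI and 222-fold in the LI, and the KO-WD mean 538-fold and 212-fold. These bounds leaned on single mice, with 489-fold in the SI and 126-fold in the LI without KO-ND replicate 7, and 337-fold and 159-fold without KO-WD replicate 1. ASV_023 passed the filter only through the KO libraries, so its edgeR adjusted p-values are a description (0.00277 and 0.0125 for KO-ND in the SI and LI, 0.00832 and 0.0117 for KO-WD). The exact rank-sum test, with 4 or 5 of the 8 KO libraries above 0, called none of the 4 (adjusted p = 0.0826, 0.138, 0.105 and 0.142 in the same order).

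The KO libraries that held ASV_023 also held other variants. ASV_017 was present in 9 of 9 SI libraries with ASV_023 and in 1 of 7 KO libraries without it, and in 8 of 8 and 2 of 8 in the LI. The count of ASV_017 over that of ASV_023 ranged from 0.211 to 9.07 (median 0.962) over these 17 libraries, a far wider range than that of the ASV_011 and ASV_039 pair. ASV_041 was found in 4 of 9 SI libraries with ASV_023 and in 0 of 7 without it, and in the LI in 3 of 8 and 1 of 8. ASV_018 was found in 4 of 9 and 0 of 7 in the SI, and in 4 of 8 and 0 of 8 in the LI. ASV_041 reached 5.02% in KO-ND replicate 6 and 2.78% in KO-WD replicate 1 of the SI, and ASV_018 reached 1.88% in KO-WD replicate 2.

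Each genotype had Lactobacillus ASVs that the other lacked. Of the 23 ASVs with counts, 3 (ASV_002, ASV_011 and ASV_017) occurred in both genotypes, 15 in KO mice only and 5 in WT mice only. The 3 shared ASVs held 272920 counts, the 15 KO-only ASVs 12233 and the 5 WT-only ASVs 4734. Of Lactobacillus ASVs 65.2% were KO-only, 21.7% WT-only and 13.0% in both, and the same 3 shares of all 864 ASVs with counts were 40.4%, 34.1% and 25.5%. Among ASVs with at least 100 counts, 7 of 12 Lactobacillus ASVs were KO-only (58.3%), 16.7% WT-only and 25% in both, against 31.6%, 22.8% and 45.6% of all 377. KO mice had 32 libraries and WT mice 24, which bears on such counts, and most of the rarer ASVs came from 1 mouse. Of the ASVs with at least 100 counts, ASV_173 (0 to 0.795% in WT libraries of the SI) and ASV_039 were the WT-only ones.

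**Figure D4:**
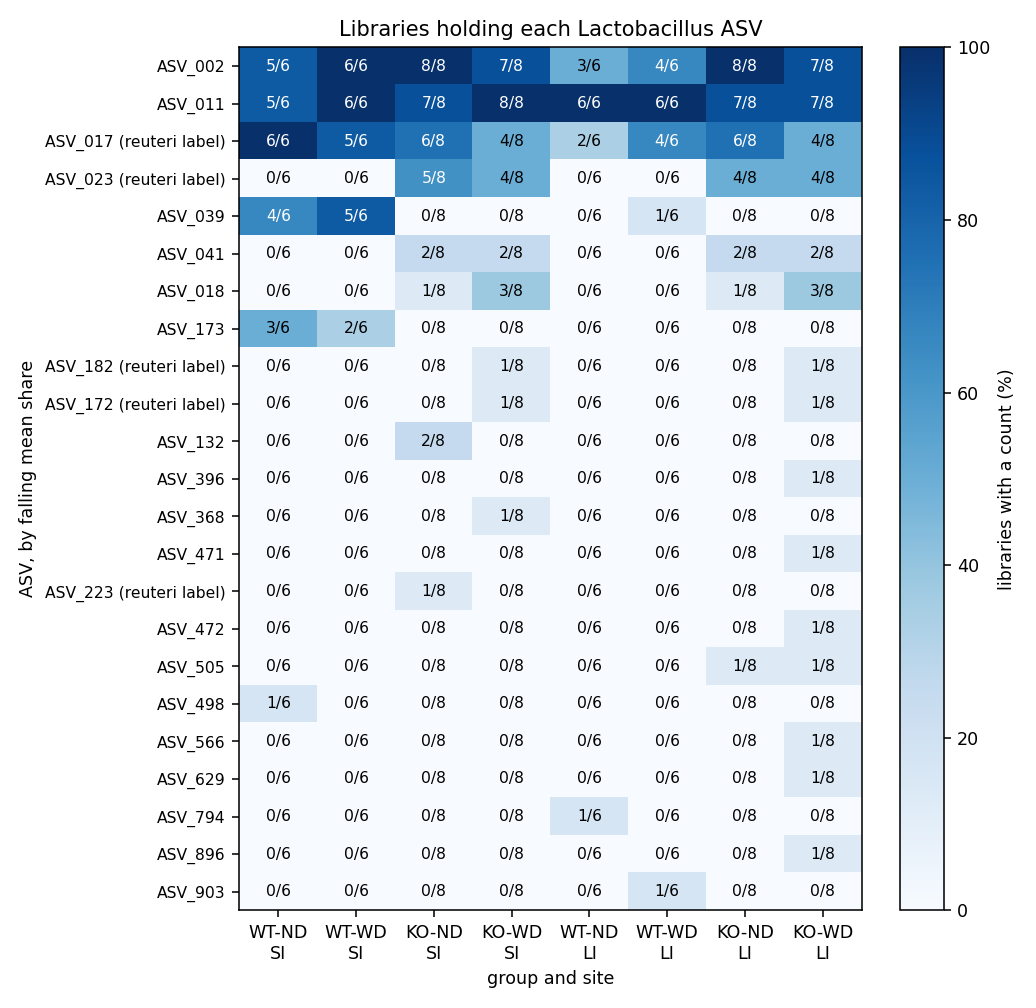
Number of libraries with a count of each of the 23 Lactobacillus ASVs, by group and site, with the shading giving the percent of libraries. 3 ASVs are found in both genotypes, 15 in KO columns only and 5 in WT columns only.

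Over all ASVs of the table, 8 of the 33 Lactobacillus ASVs passed the filter in at least 1 comparison, and 25 were never tested, 15 of them with counts. A variant found in 1 group only passed the filter through that group. In the SI, 2 of 5 Lactobacillus ASVs tested were called in KO-ND against WT-ND (40.0% of 50 ASVs called), 2 of 5 in KO-WD against WT-WD (61.5% of 52) and 2 of 5 in KO-WD against WT-ND (54.5% of 44). In each case these were ASV_023, at 0 in WT, and ASV_039, at 0 in KO libraries. In the LI, ASV_023 alone was called, 1 of 4 in KO-ND against WT-ND (52.2% of 182), 1 of 4 in KO-WD against WT-WD (45.1% of 182) and 1 of 4 in KO-WD against WT-ND (47.9% of 188). Since each of these calls is of an ASV at 0 in 1 genotype that passed through the other, the counts are a description and nothing is read from them. For diet, 0 of 5 were called in WT and 0 of 6 in KO mice in the SI (0% of 66 and 12.8% of 39 ASVs), and 0 of 3 and 0 of 6 in the LI (1.33% of 150 and 2.66% of 188). In edgeR at an unadjusted p under 0.05 there was 1 such ASV, in the LI of KO mice, and DESeq2 called none. Without the filter, edgeR called 5 in the SI and 8 in the LI of KO mice. That fit also tested ASVs with counts in 1 library only. The share of all ASVs that it called is not set beside these counts, so nothing is read from them.

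The number of Lactobacillus ASVs per library had close means in the SI, of 4.00 ± 0.894 in WT-ND, 4.00 ± 1.10 in WT-WD, 4.00 ± 1.93 in KO-ND and 3.88 ± 2.10 in KO-WD libraries. In the LI the means were 2.00 ± 0.632, 2.67 ± 0.816, 3.62 ± 1.41 and 4.50 ± 2.27. The highest single count was 8 ASVs. The differences of KO-ND and KO-WD from WT-ND in the LI were 1.62 and 2.50 ASVs (exact two-sided permutation test, p = 0.0346 and 0.0313) and did not pass the adjustment over 20 tests of this family (adjusted p = 0.230 for both).

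ASV_002 made up 81.1% ± 17.4 of Lactobacillus counts in KO-ND and 78.7% ± 33.7 in KO-WD libraries of the SI, against 42.7% ± 44.9 in WT-ND and 30.4% ± 43.7 in WT-WD libraries. The WT values ran from 0 to 95.9%, so individual WT mice lay at either end. The difference between KO-WD and WT-WD was 48.3 percentage points in the SI (exact permutation test, p = 0.0460) and 55.0 points in the LI over libraries with at least 100 Lactobacillus counts (exact permutation test, p = 0.0210, 7 against 6 libraries), and neither passed the adjustment (adjusted p = 0.230 for both). The exact test could reach 0.000666 in the SI and 0.00117 in the LI.

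Summed by species label, the ASVs without a label followed the genus. They include ASV_002 and ASV_011 and hold most of its counts, so their calls largely repeat the genus test. Their sum was higher in KO-WD than in WT-WD mice in the SI (37.2% ± 17.9 against 9.45% ± 3.38, log2 fold change 1.97, SE 0.43, edgeR adjusted p = 0.000811) and in the LI (17.1% ± 10.3 against 2.98% ± 3.33, log2 fold change 2.52, SE 0.90, edgeR adjusted p = 0.0347), where 56.2% of 32 and 40.4% of 47 species sums were called. The reuteri sum was 3.45% ± 4.03 in KO-ND, 1.86% ± 2.17 in KO-WD, 0.495% ± 0.692 in WT-ND and 0.545% ± 0.567 in WT-WD libraries of the SI. It was called in none of the 10 comparisons, and its largest value was 2.80 (SE 1.65, edgeR adjusted p = 0.320) for KO-ND against WT-ND in the SI.

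Lactobacillus had a lower share in the LI than in the SI in every mouse. The SI and LI libraries of a group that bear the same number were taken as 1 mouse, since their ASV profiles deviated together in 28 of 28 pairs (correlation 0.165 to 0.540) and each was most alike to its own number. The labels do not state this pairing, and the profiles it rests on included the Lactobacillus ASVs. The LI share was below the SI share in 6 of 6 WT-ND, 6 of 6 WT-WD, 8 of 8 KO-ND and 8 of 8 KO-WD mice. With the mouse number as a block, the genus was called lower in the LI in all 4 groups, by log2 values of -2.86 (SE 0.87, edgeR adjusted p = 0.0211) in WT-ND, -2.40 (SE 0.56, adjusted p = 0.00408) in WT-WD, -1.20 (SE 0.48, adjusted p = 0.0226) in KO-ND and -1.52 (SE 0.41, adjusted p = 0.00367) in KO-WD. The blocked fit called 41.9%, 55.3%, 72.2% and 73.0% of the genera tested in these groups. Without the block the values were -2.06, -1.63, -0.83 and -1.13, and none passed (edgeR adjusted p = 0.175, 0.0997, 0.244 and 0.0739), where 38.7%, 34.2%, 55.6% and 70.3% of genera were called. The KO-WD against WT-ND change did not differ between LI and SI by the test of that difference (0.93, SE 1.15, edgeR adjusted p = 0.760, and 1.34, SE 0.90, adjusted p = 0.389 with the block), and 19% of 42 genera were called in that test without the block and 7.14% with it.

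**Figure D5:**
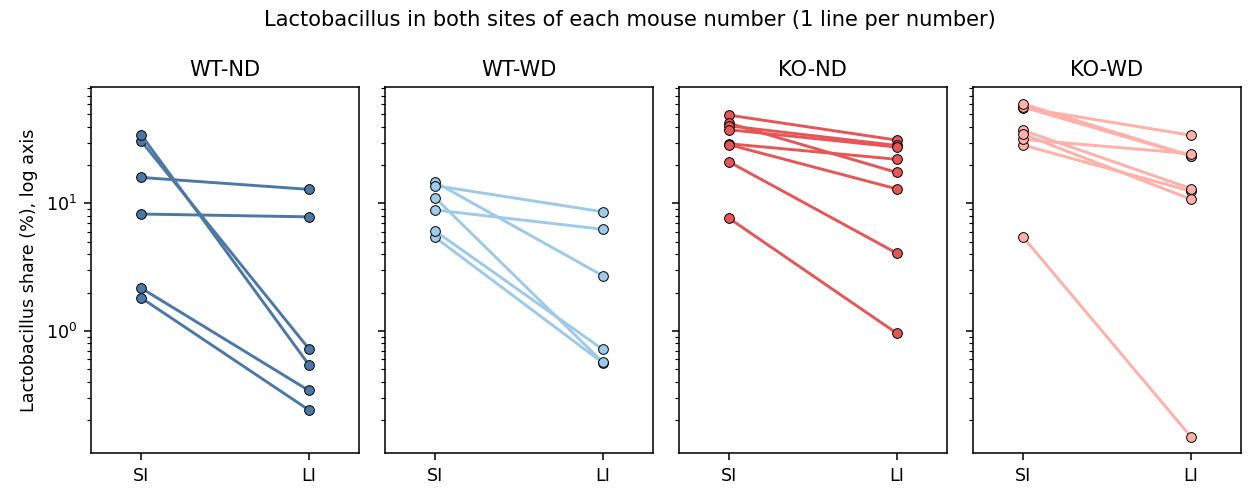
Lactobacillus share (percent, log axis) in the SI and the LI, with 1 line per mouse number, by group. All 28 lines fall from SI to LI, and WT-ND replicates 1 and 6 drop from 31.0% and 34.7% to 0.727% and 0.544%.

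The variants differed in how they crossed the 2 sites. ASV_039 had no count in the LI of WT-ND mice. The SI mean was 675-fold above 3 counts in the pooled LI total, or 138-fold without SI replicate 6, as bounds for counting error only. It passed the filter there only through the SI libraries, so its edgeR adjusted p-values (0.0107, and 0.0208 with the block) are a description. In WT-WD mice ASV_039 was lower in the LI with the block (edgeR adjusted p = 0.0270). Without the block it was not called (-4.37, SE 2.25, edgeR adjusted p = 0.161). There 1 of 6 LI libraries had it at 0.304%, so it again passed the filter through the SI libraries and these values are a description. ASV_011 was lower in the LI of WT-ND mice (-4.33, SE 1.46, edgeR adjusted p = 0.0262) and of WT-WD mice (-3.0, SE 0.83, edgeR adjusted p = 0.0108). With the block the WT-ND call was lost (-2.55, SE 1.35, edgeR adjusted p = 0.161) and the WT-WD call was kept (-2.74, SE 0.53, edgeR adjusted p = 0.0179). Unblocked, the WT-ND call was also lost with the filter at 0.1% (edgeR adjusted p = 0.0657) and the WT-WD call with no filter (edgeR adjusted p = 0.0637). In the SI of WT-WD mice ASV_011 was at 0.914% to 10.3%, and in the LI at 0.285% to 1.44%.

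ASV_002 was lower in the LI of KO-ND (-1.09, SE 0.37, edgeR adjusted p = 0.0245) and KO-WD mice (-1.14, SE 0.18, edgeR adjusted p = 0.00225) with the block and was not called without it (adjusted p = 0.404 and 0.304). Unblocked, 2 of 4 Lactobacillus ASVs were called in WT-ND, 1 of 4 in WT-WD, 0 of 5 in KO-ND and 0 of 6 in KO-WD mice (39.6%, 31.7%, 51.6% and 73.0% of all ASVs). With the block the counts were 1, 2, 1 and 1 (35.8%, 44.2%, 64.8% and 48.7% of all ASVs). All of these were lower in the LI. In that direction the blocked fits called 1.89%, 5.83%, 3.28% and 3.48% of all ASVs, with the Lactobacillus ASVs included. The blocked WT-ND call and 1 of the 2 WT-WD calls were of ASV_039, which passed the filter through the SI libraries. The counts are therefore a description and nothing is read from them. Of 111 detections of a Lactobacillus ASV in an SI library, 82 (73.9%) were matched by the same ASV in the LI of that mouse, and these were 88.2% of the 93 detections in the LI.

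Within groups, mice with more Lactobacillus in the SI had more in the LI among KO mice. Over 8 KO-ND mice Pearson's r was 0.887 (exact permutation p = 0.00456, adjusted over 4 groups 0.0183) and Spearman's rho was 0.857 (exact permutation p = 0.0107, adjusted 0.0429). Over 8 KO-WD mice r was 0.834 (exact permutation p = 0.0177, adjusted 0.0354) and rho was 0.595 (exact permutation p = 0.132, adjusted 0.265). Without the 2 mice farthest from the median SI share r was 0.753 (exact permutation p = 0.0861, n = 6) and 0.706 (exact permutation p = 0.194, n = 6), so the relation no longer passed the test over the remaining 6 mice, with r somewhat lower. In WT-WD mice r was 0.508 (exact permutation p = 0.292, rho = 0.600, exact permutation p = 0.242, n = 6). In WT-ND mice r was -0.103 (exact permutation p = 0.928, n = 6) and rho was 0.486 (exact permutation p = 0.356). Without WT-ND replicates 1 and 6, whose SI shares were the highest and whose LI shares were below 1%, r was 0.987 (exact permutation p = 0.0833, n = 4, the smallest p that 4 pairs allow).

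In the comparisons of groups, the other genera of the order Lactobacillales gave no call in the direction of Lactobacillus. 2 or 3 of them were tested in each group comparison (Lactococcus, Streptococcus and, in part, Enterococcus), and none was called higher in KO mice. Lactococcus, a genus best known from milk fermentation, was lower in KO-ND than in WT-ND mice in the SI (0.995% ± 1.16 against 9.82% ± 7.46, log2 fold change -3.30, edgeR adjusted p = 0.0226) and in the LI (-3.73, edgeR adjusted p = 8.93e-05). It was also lower in KO-WD than in WT-WD mice in the SI (1.56% ± 1.98 against 19.9% ± 7.00, log2 fold change -3.67, edgeR adjusted p = 0.00124) and in the LI (-2.10, edgeR adjusted p = 0.0145). Streptococcus and Enterococcus were called in no comparison of groups. Between sites, Streptococcus was, like Lactobacillus, lower in the LI. Without the block it was called in KO-ND (-4.64, edgeR adjusted p = 0.00275) and KO-WD mice (-4.63, edgeR adjusted p = 0.00134). It was not called in WT-WD mice in that fit (-4.31, edgeR adjusted p = 0.140). With the block, 3 of 4 genera of the order tested were called in WT-WD mice. The numbers were 1 of 2 in WT-ND, 2 of 3 in KO-ND and 2 of 3 in KO-WD mice. All were lower in the LI, and Lactobacillus was among them in each group. That fit called 55.3% of all genera in WT-WD, 41.9% in WT-ND, 72.2% in KO-ND and 73.0% in KO-WD mice.

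Over the 28 SI libraries, the genera whose shares were ordered most like that of Lactobacillus were Bifidobacterium (Spearman's rho = 0.191), Clostridium of the Clostridiaceae (0.148) and an unnamed genus of the Coriobacteriaceae (0.128), among 18 genera with a mean share of at least 0.1%. The most opposite were Adlercreutzia (-0.745), an unnamed genus of the Lachnospiraceae (-0.726) and Lactococcus (-0.695). Over the 28 LI libraries, AF12 (0.681), Odoribacter (0.616) and [Prevotella] (0.558) were the most alike among 29 genera, and Coprococcus (-0.618), rc4-4 (-0.614) and an unnamed genus of the Ruminococcaceae (-0.588) the most opposite. These values pool the 4 groups and come from shares of 1 total, and they are given as a description.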

How the data were processed

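The table deposited by the authors holds raw counts per ASV and library, not normalized. Per the series' methods, the V3-V4 region was amplified in a pair of PCRs, reads were selected by primer with FASTX-Toolkit 0.0.14, quality-filtered with Sickle 1.33 and merged with FLASH 1.2.11, DADA2 in QIIME 2 2021.4 removed chimeras and noise, and taxa came from Greengenes 13_8. ASV sequences were not used here. Members were the rows with genus Lactobacillus. Members, lists, comparisons and tests were chosen with earlier results of these data known. ASV counts were also summed by genus and by species label.

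Differences were tested with edgeR 4.0.16 in R 4.3.3 (quasi-likelihood, library totals as scaling, only the groups compared, threshold 0.05). The standard error is the log2 fold change over the square root of F. The named ASVs were the 6 with the highest mean share and those called. A group without counts was limited to 3 counts in its pooled total. Numbers of ASVs and the ASV_002 share were compared by exact two-sided permutation tests of means. Alternatives were TMM, DESeq2 1.42.0 (poscounts), limma 3.58.1 on centred log ratios (0.5 added), no filter or 0.1%, 1 fit of all groups, the replicate block, rank-sum tests, other totals and leaving out libraries. Same-numbered SI and LI libraries deviated together (28 of 28 pairs over 0.1), and same-numbered libraries of different groups did not (11 of 64), so the number pairs sites and not groups. Litters are not stated in the sources used here, so p-values measure the spread between these mice. The edgeR and exact tests were tested on simulated data.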

Additional observations from a re-analysis of the deposited data

Results flagged for a closer look

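A library was singled out where the gap between the highest or lowest library of a group and the nearest other one exceeded the 95% critical value of Dixon's test for that group size. Of 51 groups of values tested, 17 stood out in this way, where chance gives about 1 in 20, and many of these ASVs were at 0 in part of a group. In WT-ND mice, replicate 6 of the SI held ASV_011 at 26.4% (others 0 to 2.25%) and ASV_039 at 5.58% (others 0 to 0.511%), and replicate 2 of the LI held ASV_017 at 1.33% (others 0 to 0.0189%). In WT-WD mice, replicate 1 of the LI held ASV_011 at 1.44% (others 0.285% to 0.549%) and ASV_039 at 0.304%, and the others were at 0.

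In KO-ND mice of the SI, replicate 5 held ASV_011 at 2.40% (others 0 to 0.502%), replicate 7 held ASV_023 at 10.2% (others 0 to 3.08%) and replicate 6 held ASV_041 at 5.02% (others 0 to 0.275%). In the LI of KO-ND mice, replicate 8 held ASV_011 at 0.304% (others 0 to 0.130%), and replicate 6 held ASV_041 at 1.33% (others 0 to 0.153%). ASV_002 was 52.9% of Lactobacillus counts in that replicate 6, and 88.8% to 99.6% in the others.

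In KO-WD mice, replicate 5 had no ASV_002, so that its part of Lactobacillus counts was 0 in both sites (64.9% to 99.5% among the other SI libraries, 68.6% to 99.3% among the other LI libraries), and it held ASV_011 at 5.03% in the SI (others 0.113% to 2.23%). In the SI, replicate 2 held ASV_017 at 2.98% (others 0 to 1.29%) and replicate 1 held ASV_041 at 2.78% (others 0 to 0.227%). Replicate 1 also held ASV_041 at 1.48% in the LI (others 0 to 0.158%). For the genus, neither the genotype by diet interaction nor the test of whether the KO-WD against WT-ND change differed between sites passed.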

How the results depend on the processing

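The direction of every called genus difference was kept under all alternatives run, and the KO-WD against WT-WD call in the SI was kept in all of them. The KO-WD against WT-WD call in the LI was lost with TMM factors (log2 fold change 2.31), 1 fit of all groups (2.46), limma on centred log ratios (2.25) and the replicate block (3.37). KO-WD against WT-ND in the SI became a call with TMM factors (2.12), DESeq2 (2.54), no filter (1.32), 1 fit of all groups (1.32), limma (2.58), the replicate block (1.73) and the exact rank-sum test (1.32). KO-ND against WT-ND in the LI became one with the replicate block (3.01) and the rank-sum test (2.27). The replicate number pairs sites and not groups, so nothing is read from that block in comparisons of groups. LI against SI became a call with DESeq2 in WT-ND (-2.89), WT-WD (-2.82), KO-ND (-2.03) and KO-WD (-3.28), with limma (-5.19, -3.96, -4.39 and -5.14 in the same order), with the replicate block, which pairs the sites of a mouse (-2.86, -2.40, -1.20 and -1.52), with TMM factors in KO-WD (-1.89) and without Allobaculum in the total in WT-WD (-2.0). Values that were not called changed sign for WT-WD against WT-ND in the LI (0.64 with the replicate block), for the interaction in the LI (-0.60 with TMM factors, -0.81 with the replicate block, -0.57 with limma) and for the difference between sites (-0.17 with limma). The cause of these changes was not tested.

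Numbers of Lactobacillus ASVs called moved with the filter and the fit. The share of all ASVs called is not set beside these numbers, so they are a description and nothing is read from them. In KO-ND against WT-ND in the SI, 2 became 4 (TMM factors), 7 (no filter), 6 (1 fit of all groups), 1 (rank-sum) and 0 (replicate block). In KO-WD against WT-WD in the SI, 2 became 9 (no filter), 6 (1 fit) and 0 (replicate block), and in KO-WD against WT-ND in the SI, 1 (DESeq2), 10 (no filter) and 5 (1 fit). In the LI, 1 became 3 (no filter), 2 (1 fit) and 2 (rank-sum) in KO-ND against WT-ND, 10 (no filter) and 3 (1 fit) in KO-WD against WT-WD, and 10 (no filter), 3 (1 fit) and 0 (rank-sum) in KO-WD against WT-ND. The 2 rank-sum calls in KO-ND against WT-ND did not include ASV_023 (exact rank-sum test, adjusted p = 0.138). In KO-WD against KO-ND, no filter gave 5 in the SI and 8 in the LI. For LI against SI, the counts were 1 in WT-ND (0.1% filter), 2 each in WT-WD, KO-ND and KO-WD (DESeq2), and 3 in KO-ND and 8 in KO-WD (no filter). The replicate block gave 1 in WT-ND, 2 in WT-WD, 1 in KO-ND and 1 in KO-WD. Between groups the replicate number does not pair mice, since 11 of 64 same-numbered pairs of libraries correlated above 0.1 and 10 of 64 were most alike to their own number.

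With 1 library left out, the log2 fold change of the genus was 1.08 to 1.72 for KO-WD against WT-ND in the SI, and in the LI 2.02 to 3.23 for KO-ND against WT-ND, 2.24 to 3.04 for KO-WD against WT-WD, -0.80 to 0.74 for WT-WD against WT-ND and -0.23 to 0.17 for KO-WD against KO-ND. LI against SI unblocked was -2.21 to -1.41 in WT-WD, called without LI replicate 5, and -1.33 to -0.94 in KO-WD, called without SI replicate 5 or LI replicate 2 or 5. The number of ASVs called was 1 to 3 for KO-ND against WT-ND, 1 to 4 for KO-WD against WT-WD and 1 to 2 for KO-WD against WT-ND in the SI, and 0 to 2, 0 to 1 and 0 to 2 in the LI. This alternative was chosen after seeing the data, and without a carrier mouse some ASVs no longer passed the filter. The share of all ASVs called is not set beside these counts either, and nothing is read from them. ASV_011 in KO-WD against WT-ND of the SI was -2.63 to 0.18 and changed sign without WT-ND replicate 6 (0.18). Counting an ASV as present from 10 counts changed the sign of the difference in number of ASVs in the SI (0.0417 for KO-WD against both WT groups), and using all libraries with any Lactobacillus count changed that of the ASV_002 share for KO-WD against KO-ND in the LI (-8.88). The fold bounds with 1 library left out, also chosen after seeing the data, were 167 to 980 for ASV_039 in KO-ND against WT-ND and 489 to 1370 for ASV_023 in the same comparison of the SI. Without the 2 mice farthest from the median, r was 0.987 in WT-ND, 0.753 in KO-ND and 0.706 in KO-WD. No ASV was assigned to the family Lactobacillaceae without a genus, so a wider membership could not be tried. ASVs seen in fewer than 4 libraries of a comparison were tested only without the filter, and an ASV under 3 counts per group total is beyond this depth.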
